A study of Mus musculus with 6 samples.

Results

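The genes described here are 10 cathepsins, the proteases of the lysosome, in macrophages sorted from the mouse pancreas: Ctsa, Ctsb, Ctsc, Ctsd, Ctsf, Ctsh, Ctsk, Ctsl, Ctss and Ctsz. They were taken by gene name from a table of 31617 genes, in which all 10 were found, and all 10 were among the 10000 genes with the highest mean level, called expressed genes below. The mice were wild-type Balb/c animals that received hourly intraperitoneal injections of saline (mock, day 0) or of caerulein. Caerulein acts on the acinar cells of the exocrine pancreas and, given in this way, causes acute pancreatitis. Cells were taken at mock and on days 1, 3, 4, 5 and 7 counted from the first caerulein injection, and were sorted as CD45+CD11b+F4/80+ after enrichment on CD45.2 beads. The day 4 library is known from its label alone, and the label of mock gives no treatment where the design text gives saline. Each of the 6 groups is 1 library made from a pool of more than 3 mice. No difference between days therefore has a replicate error, and every interval below covers counting error only.

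Cathepsins are made as inactive precursors, carried to the lysosome largely by mannose 6-phosphate receptors, and activated there by proteolysis at acid pH. Most are cysteine proteases of the papain family. Ctsd is an aspartic protease and Ctsa a serine carboxypeptidase. In macrophages they break down engulfed cells and matrix, and some of them trim the invariant chain of MHC class II and so prepare antigen presentation. In pancreatitis cathepsin B is best known as an activator of trypsinogen, which it can reach in acinar cells and in macrophages that have taken up zymogen, while cathepsin L can degrade trypsinogen and cathepsin D can activate cathepsin B.

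Libraries held between 14853084 and 25726455 reads. The genes that define the sort, Ptprc, Itgam and Adgre1, were present in each, with a summed normalised read count between 21323 and 35740. Of 10 macrophage core genes all were detected in all 6 libraries, Csf1r at 11450 to 44659. They summed to 814071 in mock and to 525116, 897226, 1435945, 930026 and 422669 on days 1, 3, 4, 5 and 7. Transcripts of other cells were also present: 10 acinar genes summed to 700717 in mock and to 66871, 147989, 47950, 35441 and 794352 on days 1, 3, 4, 5 and 7, with Amy2a5 at 0 on day 1. Monocyte genes (8 listed, all detected) summed to 65296 in mock and to 141361, 62804, 29303, 24392 and 33574 on those days. On day 1, 5 of the 8 monocyte genes were at least 2-fold above mock and 2 below it. Among expressed genes 6.68% and 9.58% were. In such bulk libraries, fewer cells of a type and less RNA per cell cannot be told apart.

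The 10 genes together took a larger share of the reads in the libraries of days 1 to 5 than in mock, and about the mock share on day 7. They held 1.86% of all reads in mock (95% Clopper-Pearson interval 1.85% to 1.87%) and 3.58%, 4.66%, 4.65%, 3.38% and 1.79% on days 1, 3, 4, 5 and 7. The intervals were 4.65% to 4.67% for day 3, 4.64% to 4.67% for day 4 and 1.78% to 1.80% for day 7. The intervals of days 3 and 4 overlap. The 10 acinar and 6 erythroid genes listed and the genes of the mitochondrial genome took 4.57% of reads in mock. On days 1, 3, 4, 5 and 7 they took 0.541%, 1.24%, 0.697%, 0.434% and 5.97%. Acinar and erythroid genes outside these lists stayed in the total. With these genes out of the total the cathepsin share was 1.95% in mock and 4.72% and 4.69% on days 3 and 4.

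**Figure D1:**
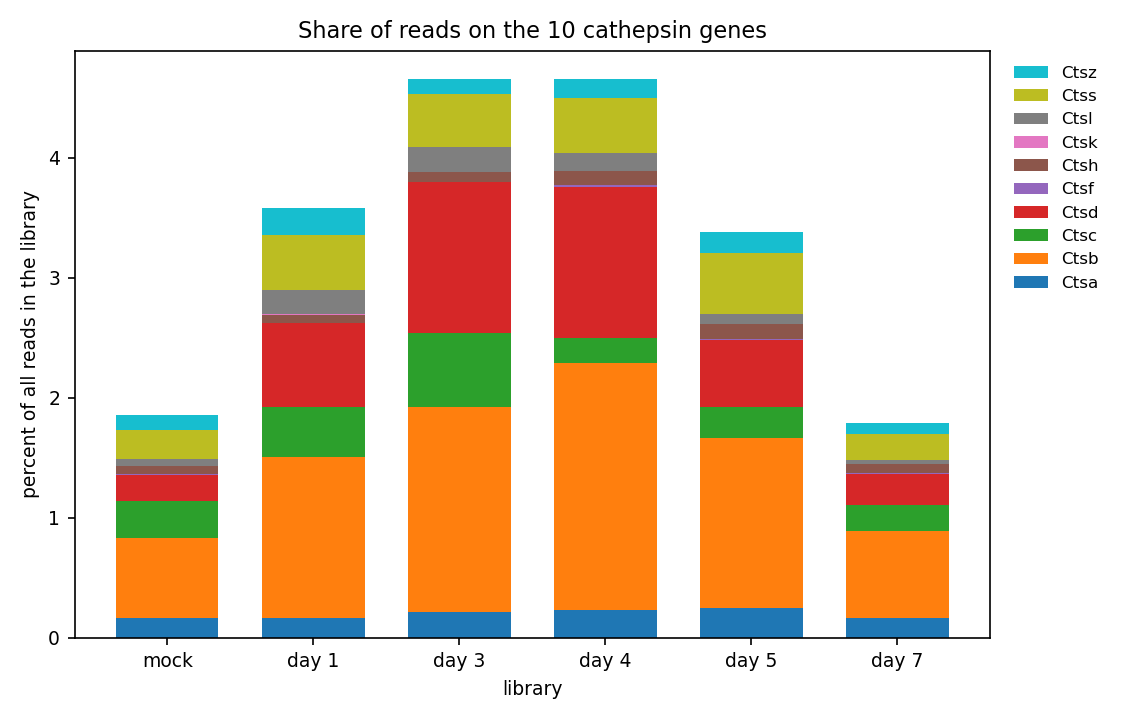
Percent of all reads in each library that fell on the 10 cathepsin genes, stacked by gene, for mock and days 1, 3, 4, 5 and 7 (1 library each, no error bars). The bars reach 4.66% and 4.65% on days 3 and 4 and stand at 1.86% in mock and 1.79% on day 7; Ctsb and Ctsd make up most of the height added on days 3 and 4.

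Ctsb (ENSMUSG00000021939, chromosome 14), which encodes the endopeptidase and dipeptidyl carboxypeptidase cathepsin B, was the most abundant member by reads and the gene with the rank of 4 among all genes by mean level. Its normalised read count was 112024 in mock and 267456, 310641, 394952, 264100 and 100080 on days 1, 3, 4, 5 and 7. The libraries of days 1 to 5 all lay above mock, day 4 the highest, and day 7 lay just below it. The log2 ratio to mock, computed with a pseudocount, was 1.26, 1.47, 1.82 and 1.24 on days 1, 3, 4 and 5 and -0.16 on day 7. The day 7 sign changed with equal library totals (0.12), and the ratio was 0.14 at the highest under another scaling.

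Ctsd (ENSMUSG00000007891, chromosome 7), which encodes the aspartic endopeptidase cathepsin D, had the highest log2 ratio of the 10 genes on days 3, 4 and 5. It stood at 37171 in mock and at 138599, 227422, 243415, 103621 and 36153 on days 1, 3, 4, 5 and 7. Those of days 3 and 4 were the highest, and day 7 was close to mock. Log2 ratios to mock were 1.90, 2.61, 2.71, 1.48 and -0.04 in the same order of days, the last of them 0.26 at the highest under another scaling. On day 4 the counting interval without pseudocount was 2.70 to 2.73, and 99.8% of expressed genes had a lower ratio. Of all reads on the 10 genes, Ctsd took 11.9% in mock and 26.9% and 27.2% on days 3 and 4.

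Ctsl (ENSMUSG00000021477, chromosome 13) encodes cathepsin L, an endopeptidase. Normalised read counts were 11146 in mock and 39926, 37414, 28517, 15317 and 4837 on days 1, 3, 4, 5 and 7. Days 1 and 3 were the highest libraries and close to each other, and days 4, 5 and 7 were each lower than the library before. Which of days 1 and 3 was higher depended on the scaling. The log2 ratio of day 3 over day 1 was -0.09 with the authors' scaling and 0.04 with equal library totals. It was 0.06 at the highest under another scaling. Ctsl took 0.200% of all reads on day 1 and 0.206% on day 3. Log2 ratios to mock were 1.84, 1.75, 1.35 and 0.46 on days 1, 3, 4 and 5 and -1.20 on day 7. With the authors' scaling Ctsl was thus the member past 2-fold in both directions. On day 7 it lay between -1.20 and -0.90 under the alternative scalings and pseudocount, so that it was within 2-fold under some. Centred on the median expressed gene, Ctsf also passed 2-fold in both directions, at -4.22 on day 1 and 1.02 on day 4.

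**Figure D2:**
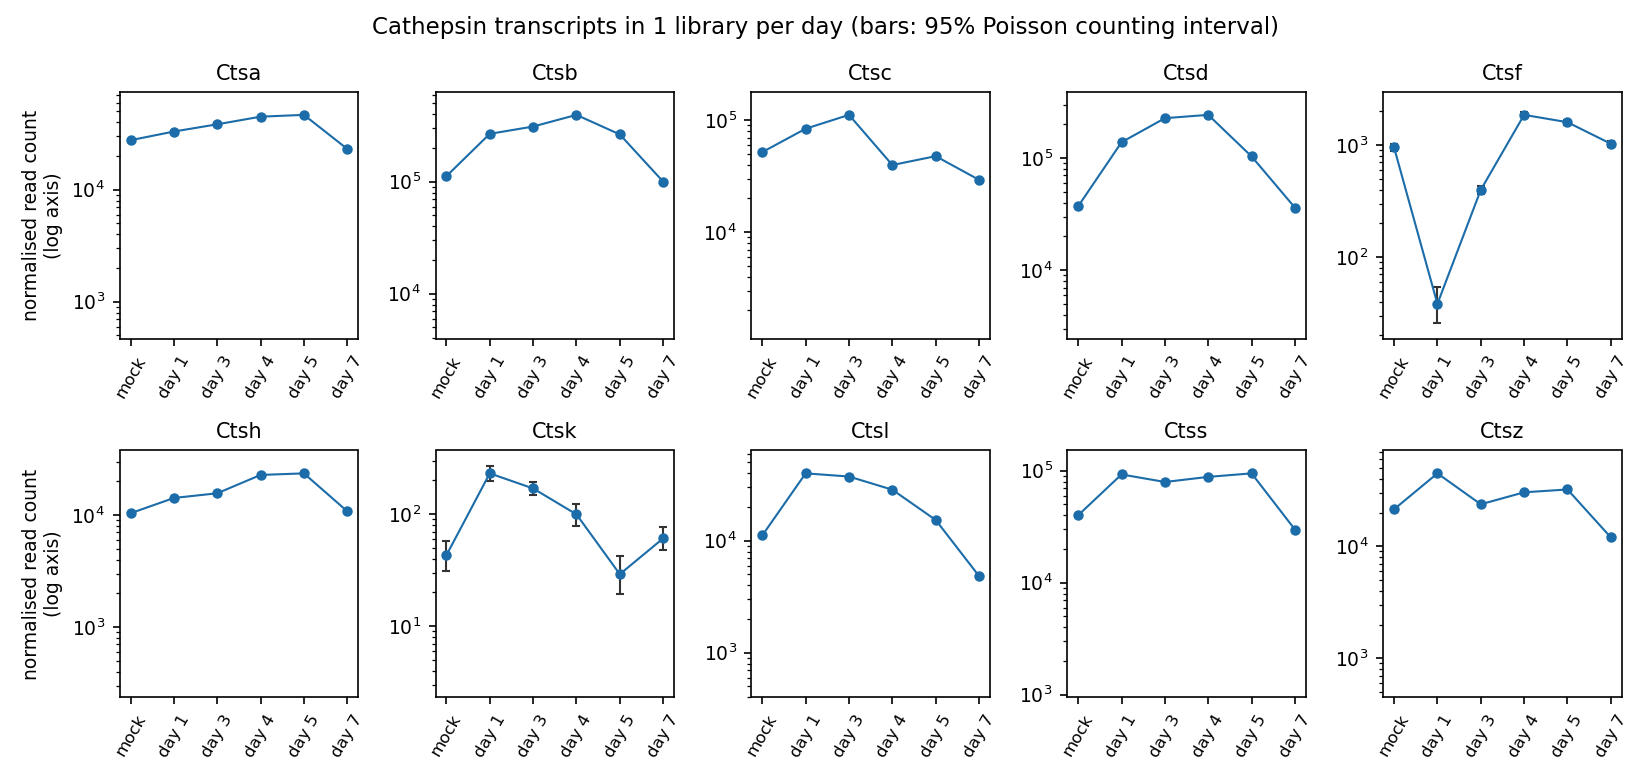
Normalised read count of each cathepsin gene (log axis, a span of the same size in each panel) in mock and on days 1, 3, 4, 5 and 7, 1 library each, with 95% Poisson counting intervals as bars, which are smaller than the points except for Ctsf and Ctsk. Days are spaced evenly, not by time. Ctsb and Ctsd are highest on day 4, Ctsk and Ctsz on day 1, Ctsl on day 1 (on day 3 with equal library totals), Ctsc on day 3 and Ctsa, Ctsh and Ctss on day 5, while Ctsf is at 38.1 on day 1 and at 1858 on day 4.

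Among the members that act on the MHC class II pathway, Ctss and Ctsf took different courses. Ctss (ENSMUSG00000038642, chromosome 3), which encodes cathepsin S, the main invariant chain protease of antigen-presenting cells, had 39988 in mock and 92569, 79245, 88003, 94607 and 29813 on days 1, 3, 4, 5 and 7. Days 1 to 5 formed a plateau between log2 ratios of 0.99 and 1.24 above mock, and day 7 was at -0.42. Ctsf (ENSMUSG00000083282, chromosome 19) encodes cathepsin F, which can also process the invariant chain in mouse macrophages. It had 950 in mock and 38.1, 397, 1858, 1597 and 1026 on days 1, 3, 4, 5 and 7. Day 1 rested on 31 reads, against 995 in mock. On day 1 the log2 ratio was -4.11, and 0.03% of expressed genes had a lower one. Counting error alone put the same ratio, taken without the pseudocount, between -5.20 and -4.12. Later ratios were -1.22, 0.95, 0.74 and 0.11 on days 3, 4, 5 and 7. Ctsf was thus far below mock when the 8 monocyte genes summed to 141361, against 65296 in mock. In that library 5 of these 8 were at least 2-fold above mock and 2 below it. Among expressed genes 6.68% and 9.58% were. The part of monocytes in the Ctsf value was not tested.

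The class II genes of this pathway, like Ctsf and unlike Ctss, stood below mock on days 1 and 3. All 6 class II genes listed, the invariant chain gene Cd74, H2-Aa, H2-Ab1, H2-Eb1, H2-DMa and H2-DMb1, were at least 2-fold below mock on day 1 (median log2 ratio -2.46) and 5 of them on day 3 (median -1.73), where 9.58% and 5.71% of expressed genes were, while 0 passed 2-fold in either direction on days 4, 5 and 7. Cd74 had 124549 in mock and 20774, 28677, 130870, 136059 and 197319 on days 1, 3, 4, 5 and 7. H2-Aa, the class II alpha chain gene, had log2 ratios of -2.66, -1.75, 0.47, 0.11 and 0.43 on those days. Dendritic cell genes, whose cells also carry class II, summed to 4440 in mock and to 922, 1523, 5469, 2358 and 7289 on days 1, 3, 4, 5 and 7 (8 listed, none at 0). B cell genes, also of class II carriers, summed to 5963 in mock and to 1765, 683, 1067, 1235 and 5271 on those days (7 listed, none at 0). All 5 expressed B cell genes were at least 2-fold below mock on days 1 and 3. Of the 6 expressed dendritic cell genes, 2 were as low on each of these days (medians -0.86 and -0.39). On day 4, 2 of them were at least 2-fold above mock and 2 below it, where 3.31% and 8.11% of expressed genes were. On day 5, 1 was below, where 6.4% were, with a median of 0.0035. On day 7, 3 were above, where 1.96% were. The part of either cell type in the class II and Ctsf values was not tested.

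Ctsa, Ctsc, Ctsh and Ctsz remove residues from chain ends, and among these Ctsc parted from Ctsa and Ctsh after day 3. It already differed from Ctsz before that, with log2 ratios of day 3 over day 1 of 0.41 for Ctsc and -0.92 for Ctsz. On day 7 Ctsc and Ctsz were alike against mock, at -0.82 and -0.83. Ctsc (ENSMUSG00000030560, chromosome 7) encodes cathepsin C, or dipeptidyl peptidase I, which activates granzymes and the serine proteases of neutrophils and mast cells. Its normalised read counts were 51868 in mock and 83860, 111505, 39760, 47716 and 29320 on days 1, 3, 4, 5 and 7. It was highest on day 3 and below mock on days 4, 5 and 7, with log2 ratios of 0.69, 1.10, -0.38, -0.12 and -0.82. Between day 4 and day 3 the log2 ratio was -1.49, when Ctsb was at 0.35. Within the 10 genes Ctsc took 16.6% of reads in mock, 13.2% on day 3 and 4.44% on day 4. Of the 8 serine proteases listed as its targets 3 were expressed, namely Gzma, Gzmb and Prtn3. Their levels in the Ctsc-rich day 3 library were 46.5, 21.1 and 142, against 950, 477 and 158 in mock. Of these 3, 1, 2, 3, 3 and 0 were at least 2-fold below mock on days 1, 3, 4, 5 and 7. Among expressed genes 9.58%, 5.71%, 8.11%, 6.4% and 6.57% were. Their medians were -0.95, -3.67, -3.11, -1.53 and -0.02. They were thus also low on days 4 and 5, when Ctsc was itself below mock. Gzma is also 1 of the 7 T and NK cell genes listed, which summed to 319 on day 3, against 3532 in mock. The part of those cells in its level was not tested, nor was that of other cells in the levels of Gzmb and Prtn3.

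Ctsh (ENSMUSG00000032359, chromosome 9) encodes cathepsin H, an aminopeptidase. It had 10358 in mock and 14190, 15624, 22779, 23531 and 10784 on days 1, 3, 4, 5 and 7, so that days 4 and 5 were the highest, with log2 ratios of 1.14 and 1.18, and day 7 was near mock (0.06). Ctsa (ENSMUSG00000017760, chromosome 2), the carboxypeptidase that also protects the beta-galactosidase and neuraminidase encoded by Glb1 and Neu1, had the narrowest span of the 10 genes, 2.02-fold between its lowest and highest library. Its normalised read count was 27653 in mock and 33064, 38353, 44869, 46571 and 23105 on days 1, 3, 4, 5 and 7, within 2-fold of mock on every day. Its log2 ratio of 0.26 on day 1 became -0.05 at the lowest under another scaling, and that of -0.26 on day 7 became 0.04 at the highest. In GENCODE M21, 13.5% of Ctsa exon bases overlap those of Pltp on the other strand. Pltp had 20931 in mock and 4326, 10193, 37759, 43453 and 25973 on days 1, 3, 4, 5 and 7. Of Ctsb exon bases, 16.3% overlap Fdft1, again on the other strand, and Fdft1 had at most 1160 in any library. The largest overlap was that of Ctsd, with 38.0% of its exon bases shared with the predicted gene Gm49369 on the same strand. Of Ctsl exon bases, 28.2% overlap Gm47123 on the other strand and 6.40% overlap Gm49230 on the same strand. These predicted genes were not found among the genes with values, and their part in the Ctsd and Ctsl values was not tested. No source used here says whether counting took strand into account. Strand would not separate Ctsd from Gm49369 or Ctsl from Gm49230.

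Ctsz (ENSMUSG00000016256, chromosome 2) encodes cathepsin Z, a carboxypeptidase also called cathepsin X. It had 21390 in mock and 44767, 23711, 30327, 32153 and 12006 on days 1, 3, 4, 5 and 7. Day 1 stood out with a log2 ratio of 1.06, against 0.15 on day 3, a value that was -0.01 at the lowest under another scaling. On day 7 the ratio was -0.83.

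Ctsk (ENSMUSG00000028111, chromosome 3), the collagen-degrading cathepsin K best known from osteoclasts and fibroblasts, was the least abundant member by mean level. It had 43.0 in mock and 231, 170, 99.6, 29.1 and 60.8 on days 1, 3, 4, 5 and 7, from between 28 and 241 reads. Log2 ratios were 2.04, 1.63, 0.95, -0.37 and 0.37. The counting interval without pseudocount was 1.95 to 2.93 on day 1, and included 0 on day 5 (-1.30 to 0.15) and on day 7 (-0.06 to 1.07). The 8 fibroblast and stellate cell genes listed, with none at 0, summed to 3072 in mock and to 517, 15691, 798, 2044 and 8418 on days 1, 3, 4, 5 and 7. Day 1, with the most Ctsk, had the least of these transcripts, and day 3, with the next highest Ctsk, had the most. Their part in the Ctsk values was not tested.

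Against mock the 10 genes were mostly higher on days 1 to 5, and the share at least 2-fold higher was above that among all expressed genes. On day 1, 6 were at least 2-fold higher (Ctsb, Ctsd, Ctsk, Ctsl, Ctss and Ctsz), where 6.68% of expressed genes were, and 1 lower (Ctsf), where 9.58% were. On day 3, 5 were higher (Ctsb, Ctsc, Ctsd, Ctsk and Ctsl), where 3.73% of expressed genes were, with Ctss just short of it at 0.99, and 1 lower (Ctsf), where 5.71% were. On day 4, 5 were higher (Ctsb, Ctsd, Ctsh, Ctsl and Ctss), where 3.31% of expressed genes were, and 0 lower, where 8.11% were; Ctsf and Ctsk were just short of it at 0.95. On day 5, 4 were higher (Ctsb, Ctsd, Ctsh and Ctss), where 3.68% were, and 0 lower, where 6.4% were. On day 7, 0 were higher, where 1.96% were, and 1 lower (Ctsl), where 6.57% were.

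The median log2 ratio of the 10 genes was 1.14, 1.05, 1.05, 0.75 and -0.21 on days 1, 3, 4, 5 and 7. That of all expressed genes was 0.15, 0.08, -0.01, 0.12 and -0.11. The 10 macrophage core genes had medians of 0.46, 0.22, 0.64, 0.92 and -0.52. Of these, 4, 0, 3, 4 and 0 were at least 2-fold above mock on those days, where 6.68%, 3.73%, 3.31%, 3.68% and 1.96% of expressed genes were. Below mock by as much were 3, 0, 0, 0 and 4, where 9.58%, 5.71%, 8.11%, 6.4% and 6.57% of expressed genes were. The part of macrophage content in the cathepsin ratios to mock was not tested. With equal library totals in place of the authors' scaling, the median of expressed genes moved to -0.08, -0.03, -0.20, -0.02 and 0.16. That of the 10 cathepsin genes moved to 0.89, 0.94, 0.87, 0.60 and 0.07, so that the day 7 median changed sign. The shares of expressed genes at least 2-fold higher and lower were then 3.82% and 12.9% on day 1, 2.24% and 10.3% on day 4, 2.40% and 7.49% on day 5, and 5.62% and 2.96% on day 7. Where the totals also left out the listed acinar and erythroid genes and the mitochondrial genes, they were 2.58% and 6.96% on day 3. These 5 comparisons share the mock library.

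**Figure D3:**
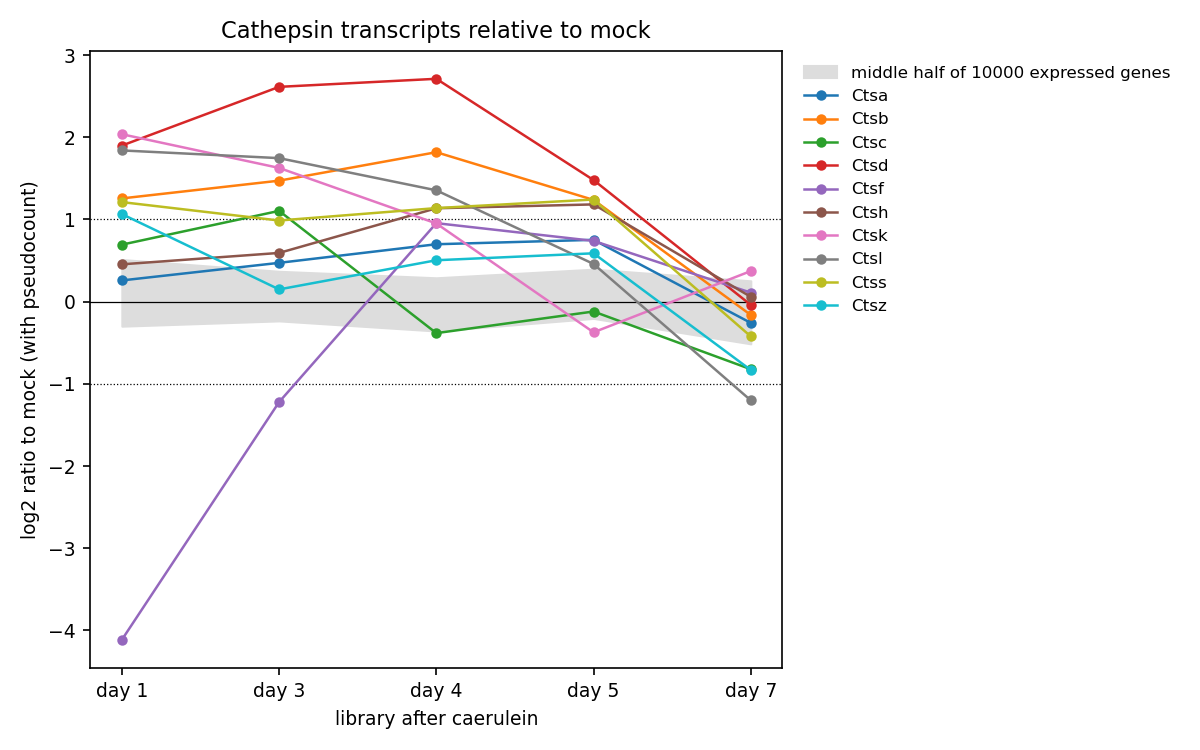
Log2 ratio of each cathepsin gene to mock (with pseudocount) on days 1, 3, 4, 5 and 7, 1 library each; the grey band is the interquartile range of 10000 expressed genes and the dotted lines mark 2-fold. Ctsd peaks at 2.71 on day 4, Ctsf stands at -4.11 on day 1, and on day 7 all 10 genes lie between -1.20 and 0.37.

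Between successive days, most members stood lower at the last step, and fewer passed 2-fold at the steps before it. From day 1 to day 3, 1 was at least 2-fold higher (Ctsf, log2 ratio of day 3 over day 1 2.89), where 9.72% of expressed genes were, and 0 lower, where 8.21% were; Ctsz was at -0.92. From day 3 to day 4, Ctsf was again higher, by 2.18, where 3.23% of expressed genes passed 2-fold, and Ctsc was lower, where 5.89% did. For day 5 over day 4, 0 were higher, where 5.4% were, and 2 lower, where 3.11% were: Ctsd at -1.23 and Ctsk at -1.32. Ctsl was at -0.90 in that step and Ctsb at -0.58, while Ctsa, Ctsh, Ctss and Ctsz lay between 0.05 and 0.10 and changed sign under at least 1 other scaling. For day 7 over day 5, 7 were at least 2-fold lower (Ctsa, Ctsb, Ctsd, Ctsh, Ctsl, Ctss and Ctsz), where 4.68% of expressed genes were, and 0 higher, where 5.07% were. Ctss had the lowest ratio of that step at -1.67, and Ctsk was the member above 0, at 0.75. In the same step 8 of the 10 macrophage core genes were at least 2-fold lower and 0 higher (median -1.16, against -1.26 for the cathepsins), and all 9 expressed acinar genes were at least 2-fold higher (median 4.54). The part of a change in cell content in the cathepsin values was not tested. With equal library totals, 3 of the 10 were at least 2-fold lower in this step, where 1.45% of expressed genes were, and 1 higher (Ctsk), where 8.39% were; the median of expressed genes was then 0.16, against -0.25 with the authors' scaling. Under other scalings the shares of expressed genes at least 2-fold higher and lower were 11.7% and 6.34% for day 3 over day 1 (totals without the 10 genes), and, centred on the median gene, 4.48% and 4.87% for day 4 over day 3 and 3.56% and 5.36% for day 5 over day 4.

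Ratios between members within a library do not depend on scaling. There were 0.332 Ctsd reads per Ctsb read in mock and 0.518, 0.732, 0.616, 0.392 and 0.361 on days 1, 3, 4, 5 and 7. Ctsl reads per Ctsb read numbered 0.0995 in mock and 0.149, 0.12, 0.0722, 0.0580 and 0.0483 on those days. There were 3.59 Ctss reads per Ctsl read in mock and 2.32, 2.12, 3.09, 6.18 and 6.16 on those days. Relative to Ctsb, Ctsd was thus highest on day 3 and Ctsl on day 1, and Ctsl was lower against both Ctsb and Ctss on days 5 and 7 than in mock.

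Per length, Ctss, Ctsb and Ctsd held the first 3 places in every library and changed places among themselves. Per kb of exon in GENCODE M21, Ctss led in mock (29446 normalised reads per kb), ahead of Ctsb (23619), Ctsd (17476) and Ctsz (14844). Ctss also led on day 1 (68166), close to Ctsd (65162). Ctsd led on day 3 (106921) and day 4 (114441), with Ctsb next at 65495 and 83270. On day 5 the order was Ctss (69666), Ctsb (55682) and Ctsd (48717), and on day 7 Ctss (21954) and Ctsb (21101) were again first. Ctsf and Ctsk were last in every library, Ctsf below Ctsk on day 1 at 19.3 against 153 per kb. Below the first 3 places, Ctsc was in place 4 on day 3 and in place 7 on days 4, 5 and 7. With 1 library per day, no spread says which neighbours in this order differ. The places of Ctsl and Ctsc depended on the length used. With principal transcripts Ctsc was in place 3 in mock, ahead of Ctsd, and on day 1 Ctsl had 6473 reads per kb over all exons and 20257 over its shorter principal transcript.

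Members also resembled one another to different degrees. Likeness was measured as the root mean square difference between log2 profiles over the 6 libraries, each centred on its own mean. The closest pair was Ctsa and Ctsh (0.16), followed by Ctsb and Ctss (0.26) and Ctss and Ctsz (0.30), while Ctsf was at least 1.65 from every other member. Among 9544 named expressed genes, those nearest to Ctsd were the metalloproteinase gene Mmp27 (0.41), Ctsb (0.42) and Gpr157 (0.49). Nearest to Ctsf were Hpgd (0.50), which encodes the enzyme that inactivates prostaglandins, Tmem176b (0.53) and Abca9 (0.53). Nearest to Ctsl were Bach2os (0.23), Cstb (0.32) and the fatty acid binding protein gene Fabp3 (0.37). For Ctsk they were the phosphodiesterase gene Pde4d (0.21), Hmgn3 (0.35) and Arhgap24 (0.37). These distances describe 6 libraries that share their scaling.

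The cystatins, the main inhibitors of cysteine cathepsins, were 3 of 11 listed genes at an expressed level. Cstb, the stefin that acts inside the cell, had 2407 in mock and 9673, 4801, 4980, 2170 and 952 on days 1, 3, 4, 5 and 7, with log2 ratios of 2.0, 0.99, 1.04, -0.15 and -1.32. It was high on the days when Ctsl was high. Cst3, the secreted cystatin C, was instead highest on day 4, with 97230, and stood at 37097 in mock and at 29412, 43680, 59762 and 38982 on days 1, 3, 5 and 7. Cst7, cystatin F, stayed between 61.5 and 145 in the 6 libraries and within 2-fold of mock. Of 7 serpins listed as inhibitors 5 were expressed, of which 2, 1, 4, 1 and 1 were at least 2-fold below mock on days 1, 3, 4, 5 and 7 and 1 above it on day 5. Among all expressed genes 9.58%, 5.71%, 8.11%, 6.4% and 6.57% were as far below mock and 3.68% as far above it on day 5, so that 1 of 5 is too few to read. Serpinb1a, an inhibitor of neutrophil serine proteases, was at -2.69 on day 5. The 10 neutrophil genes listed summed to 8015 in mock and to 4819, 6729, 11103, 492 and 2796 on days 1, 3, 4, 5 and 7. Elane was at 0 on day 5. Of the 6 expressed, 5 were at least 2-fold below mock on days 3 and 4, and 6 on day 5. Their medians were -1.74, -1.67 and -3.61. On day 4, 1 was at least 2-fold above mock, where 3.31% of expressed genes were. The sums of days 3 and 4 thus do not stand for most of the list. The part of these genes in the Serpinb1a value was not tested. Serpina3g, a serpin of leukocytes that inhibits cysteine cathepsins, was at -2.26 on day 3 and 1.13 on day 5.

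Among genes that mature or accompany cathepsins, Lgmn stood out. It encodes legumain, the asparaginyl endopeptidase that cuts several cathepsins into their final chains, and had 27819 in mock and 80337, 72203, 49584, 54149 and 20647 on days 1, 3, 4, 5 and 7. The log2 ratio was 1.53, 1.38, 0.83, 0.96 and -0.43. Psap, the precursor of the saposins, was between 0.35 and 0.89 on those days, and Glb1 and Neu1 were within 2-fold of mock on all 5. Of the 9 genes of mannose 6-phosphate sorting, 1 was at least 2-fold higher on day 1, the receptor gene Igf2r (276 against 84.0 in mock, log2 ratio 1.53), a share near the 6.68% of expressed genes, and 0 on later days, and 0 were at least 2-fold lower on any day. The adaptor gene Gga2 was at 0.98 on day 1. The 4 MiT/TFE transcription factor genes, regulators of lysosomal genes, were within 2-fold of mock except Tfec on day 7 (-1.01), where 6.57% of expressed genes were as low. Tfeb had 1039 in mock and 1336, 840, 1240, 1535 and 1456 on days 1, 3, 4, 5 and 7. Mitf was highest on day 4, at 0.89.

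**Figure D4:**
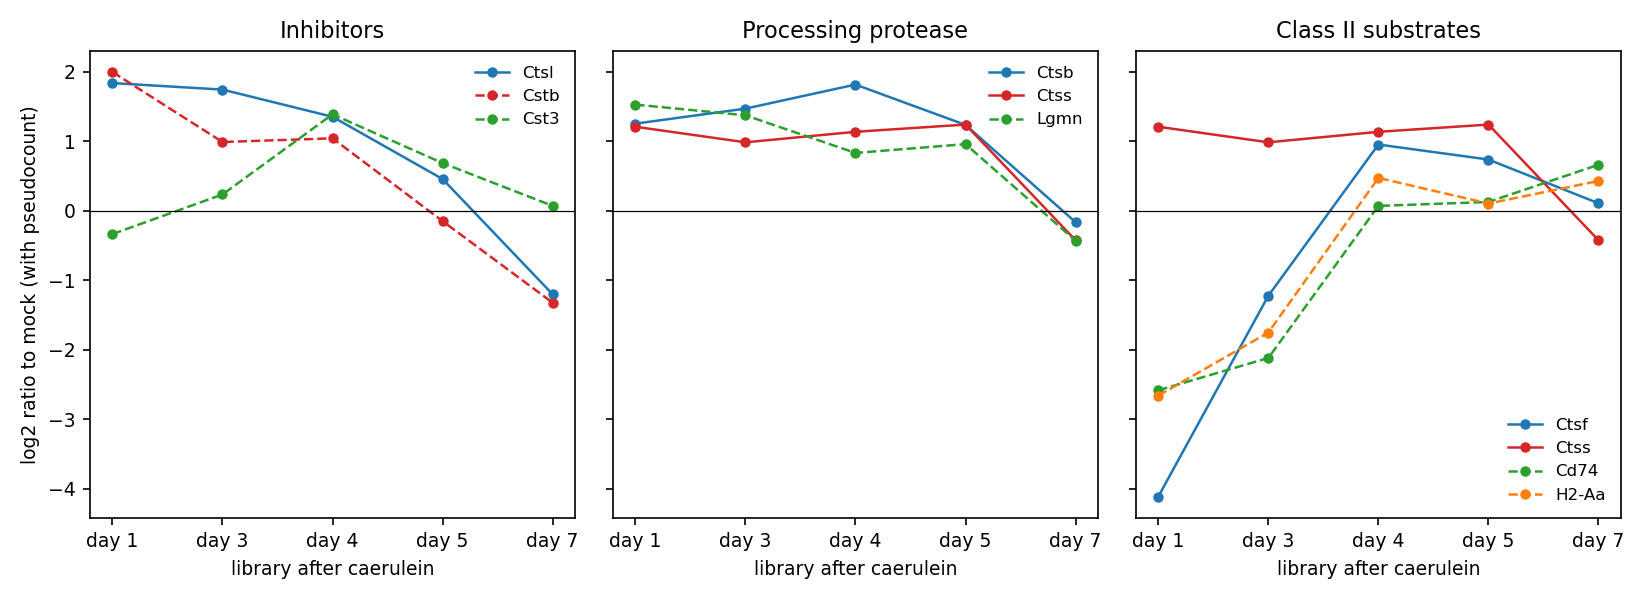
Log2 ratio to mock (with pseudocount) on days 1, 3, 4, 5 and 7 of cathepsin genes (solid) and related genes (dashed): Ctsl with the inhibitors Cstb and Cst3, Ctsb and Ctss with the processing protease gene Lgmn, and Ctsf and Ctss with the class II genes Cd74 and H2-Aa. Cstb is at 2.0 on day 1 and at -1.32 on day 7 beside Ctsl, and Cd74 is at -2.58 on day 1 where Ctsf is at -4.11 and Ctss at 1.21.

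Short stretches around promoter motifs are shown as background, since MiT/TFE factors act on lysosomal genes through E-boxes. RefSeq sequences (GRCm38.p6) from 250 bases before to 50 after the start were on hand for 8 of the 10 genes, in 9 windows; Ctsb and Ctsh had no entry and were not searched. Both strands were searched for the E-box CACGTG, its longer form TCACGTGA, the CLEAR element with 1 more base at either end of that form, the Ets-type GAGGAAGT and an interferon-type element of 2 TTTC blocks 2 bases apart. The E-box lies inside both longer forms. Of 32851 windows of all genes, 7.15%, 0.974%, 0.326%, 3.20% and 3.44% held them. The first was found in Ctsa, Ctsd, Ctsf and Ctsl, the second in Ctsa and Ctsd and the third in 0 of the 9 windows. The Ets-type was found in Ctsc and Ctss and the interferon-type in Ctss. Ctsd also holds an E-box outside the longer form, at -245 from the start, which is not printed. Capitals mark the matched letters, the stretches read 5′ to 3′ on the gene's strand, and a match is a description of sequence, not a bound site.
Ctsd, minus strand, chr7:142387908-142387937: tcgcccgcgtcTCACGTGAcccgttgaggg
Ctsa, plus strand, chr2:164833758-164833786: tgTCACGTGAtgcagatgcTCACGTGAcc
Ctsl, minus strand, chr13:64370740-64370767: gcgttagaagcCACGTGctgatctaaat
Ctsf, plus strand, chr19:4855075-4855102: accccgtggtcCACGTGcctcgcgtaaa
Ctss, plus strand, chr3:95526764-95526792: tGAAACCGAAAtgaaagttcACTTCCTCa
Ctsc, plus strand, chr7:88277923-88277952: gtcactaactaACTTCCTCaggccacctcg
On day 1 the log2 ratios to mock were 1.90 for Ctsd and 0.26 for Ctsa, which hold the longer E-box, and -4.11 for Ctsf and 1.84 for Ctsl, which hold the core alone. On day 4 they were 2.71, 0.70, 0.95 and 1.35 in the same order of genes. The part of any motif in these values was not tested.

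A count test on the reads recovered from the table bears little on the members, because it must take the 5 different days as replicates, so that differences between days enter the spread, and assume that the lone mock library varies like them. The few calls below follow from that design and say nothing of whether a member differed. Here edgeR's quasi-likelihood test called 0 of 14106 genes (0%) at an adjusted p under 0.05 and 0 of the 10 members. At an unadjusted p under 0.05 it had 102 genes and 0 members. DESeq2 called 2 genes and 0 members, and 1 member, Ctsd, was under 0.05 before adjustment.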

How the data were processed

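RNA-seq libraries of sorted pancreatic macrophages, 1 per day, were grouped by the sample titles. The authors deposited a normalised signal per gene. Each column of the deposited signal holds whole multiples of 1 step, so that 100% of values gave whole reads within 0.01 reads, and totals per library are those of the recovered reads. The submitters' processing notes name Bowtie 0.12.2 and mm8 without a role. No source used here names the counter or the annotation, and no gene coordinates of that build are printed. All 10 identifiers were matched to gene names.

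Log2 ratios used a pseudocount of 17.8 normalised reads, which understates ratios of low genes such as Ctsf on day 1 and Ctsk. Genes were counted at 2-fold beside the same share among 10000 expressed genes, the lowest with a mean of 74.1. Intervals are 95% Clopper-Pearson intervals of read ratios or shares; on the log2 scale they reached 0.02 to either side at the median and 0.72 at most. Reads are not independent molecules.

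Named are the 10 members, up to 2 genes of each list with the largest ratio, Cst3, Cstb, Lgmn and Cd74, and the 3 genes nearest to each member spanning 4-fold. Other genes named from the lists or for an overlap were chosen after their values were seen. Members and lists were chosen with earlier results of these data known. Genes with at least 60 reads entered the count tests (R 4.3.3, with edgeR 4.0.16 and DESeq2 1.42.0). Ratios and count tests were tested on simulated data. For the count tests the simulated caerulein libraries were replicates with the same changes, unlike the different days here. That check therefore does not show how the count tests behave on these libraries. Figures were drawn with matplotlib 3.10.9, and the rest was computed with scipy 1.17.1, pandas 2.3.3 and numpy 2.4.6 under Python 3.11.15.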

Additional observations from a re-analysis of the deposited data

Results flagged for a closer look

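With the authors' scaling, Ctsl was past 2-fold in opposite directions on different days against the same mock library. Its log2 ratios were 1.84, 1.75 and 1.35 on days 1, 3 and 4 and -1.20 on day 7. The day 7 ratio was -0.90 at the highest under another scaling. The difference between these days was not tested, since each is 1 library.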

How the results depend on the processing

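Each count of members past 2-fold was recomputed under 6 alternatives, and 94 of 108 such counts stayed within 1.5 times the main one. With a pseudocount of 1, 1 member was higher for day 7 over day 5, against 0. With equal library totals, 3 members were higher on day 4 (against 5), 0 lower on day 7 (against 1), and for day 7 over day 5 1 was higher and 3 lower (against 0 and 7). Without the listed acinar and erythroid genes and the mitochondrial genes these 4 counts were 3, 0, 1 and 3, and 3 were higher on day 1 (against 6). Without the 10 members in the totals they were 3, 0, 1 and 4. Apart from the pseudocount, each of these alternatives rescales whole libraries. No member past 2-fold changed sign under any of them. The share of reads on the 10 genes was also taken with the listed acinar and erythroid genes and the mitochondrial genes out of the total. It was then 1.95% in mock and 3.60%, 4.72%, 4.69%, 3.39% and 1.90% on days 1, 3, 4, 5 and 7. Without Ctsb it was 1.19%, 2.24%, 2.95%, 2.60%, 1.96% and 1.06% in the same order. DESeq2 called 2 genes where edgeR called 0. Leaving out each caerulein library in turn, chosen after seeing the data, edgeR called 0 genes and 0 members each time, with 71 to 445 genes at an unadjusted p under 0.05; the 445 were without day 7, where 1 member was among them, against 102 genes and 0 members with all days. With 1 mock library these counts say nothing about stability. No paired analysis was possible because each day has 1 library. Without the filter on low values, 2.47% of 31617 genes were higher and 4.77% lower on day 1. Over the other scalings, the higher genes made up between 19.7% and 34.3% of expressed genes past 2-fold on day 1, against 41.1% with the authors' scaling, and between 25.6% and 69.2% on day 7, against 23.0%. Depth limits Ctsk and the day 1 value of Ctsf.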

Other observations

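Of 14 other cathepsin family genes listed, 13 were in the table and 4 were expressed. Ctsw, a cathepsin of NK and cytotoxic T cells, had normalised read counts of 401 in mock and 122, 74.0, 162, 432 and 1200 on days 1, 3, 4, 5 and 7, with log2 ratios of -1.59, -2.19, -1.22, 0.10 and 1.54. The 7 T and NK cell genes, none at 0, summed to 3532 in mock and to 988, 319, 696, 1683 and 6482 on those days, in nearly the same order of libraries as Ctsw, and their part in its values was not tested. Napsa, the aspartic protease napsin A, had 4221 on day 1, against 2043 in mock (log2 ratio 1.04), and between 1070 and 2255 on the later days. Ctse, an aspartic cathepsin of antigen-presenting cells, and Ctso were within 2-fold of mock on every day. Ctsg, a neutrophil granule protease, had at most 6 reads in any library, and the 8 placental-type genes Cts3, Cts6, Cts7, Cts8, Ctsj, Ctsll3, Ctsm and Ctsr were not expressed.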
